A study of Mus musculus with 6 samples.

Results

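Fos, Fosb, Fosl1, Fosl2, Jun, Junb, Jund, Egr1, Egr2 and Egr3 encode transcription factors of the Fos, Jun and Egr families. Chromatin accessibility around these 10 of 21883 protein-coding genes was taken from 172 of 193148 ATAC-seq regions, namely every region that overlapped the RefSeq bounds of one of the genes extended by 50 kb on each side. No region belonged to more than 1 of the genes. ATAC-seq reads out DNA that is open to a transposase, so the values below describe the chromatin at these genes and not their RNA or protein.

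Fos and Jun proteins join as dimers through leucine zippers and form AP-1, which binds the TPA response element and, in some pairings, the closely related cAMP response element. Fos proteins need a partner, whereas Jun proteins can also pair with each other. Egr proteins bind GC-rich DNA through zinc fingers. Many of these genes are immediate early genes: in neurons, synaptic activity and stress switch them on within minutes through CREB, serum response factor and its Elk partners at their promoters, and through distal enhancers in the case of Fos. In reward circuits Fos protein is a common marker of recently active cells, and the ΔFosB form made from Fosb accumulates on repeated stimulation.

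The nuclei came from the ventral tegmental area of mice, a midbrain region rich in dopaminergic neurons, in a study of how Ogt knockdown changes accessible chromatin there. Ogt encodes the enzyme that places O-GlcNAc sugars on nuclear and cytoplasmic proteins. One group was Ogtflox+/Y, with 3 libraries, and the other was Ogtflox-/Y, also with 3 libraries. Mice of both genotypes received AAV-TH-Cre together with a second vector, AAV-DIO-H2B-EGFP, so Cre and sorting for the nuclear fluorescent protein were shared by all libraries, and the labels separate the groups by genotype alone. The cells recovered depend on how faithfully the TH element of the Cre vector marks dopaminergic neurons. Age is not given in the sources used here, nor is it stated whether the 3 libraries of a genotype are 3 animals, so the p-values rest on a spread between libraries that may be technical. The genotype label of Ogtflox+/Y replicate 1 names Ogtflox+/Y while its title names Ogtflox-/Y. Results are given by genotype label. With grouping by title, 0 of all regions and 0 of the 172 passed the edgeR test, although 23035 of all and 23 of the 172 had an unadjusted p under 0.05. Every result below therefore rests on the genotype label of that library.

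Reads in regions numbered 12698758 to 15795872 in Ogtflox+/Y libraries and 13120042 to 24440507 in Ogtflox-/Y libraries. These were 31.0% to 37.0% of the library totals in Ogtflox+/Y and 36.6% to 38.2% in Ogtflox-/Y libraries. Levels are given as CPM, the count per 1000000 reads in regions after TMM scaling, and 3 reads correspond to 0.117 to 0.238 CPM, a floor that covers counting error only. Th is the dopaminergic marker gene whose name the Cre vector carries. Its start region had 198 CPM on average in Ogtflox+/Y libraries and 267 CPM in Ogtflox-/Y libraries. All 8 dopaminergic marker genes had reads at their start in every library, those other than Th at 3.83 to 16.3 CPM. So did every start region of the markers of other cell types, so these reads do not tell dopaminergic nuclei from others.

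The promoters printed are those of Egr2, whose start had the largest loss, of Jun, whose start had the largest gain under TMM scaling, and of Fos, the activity marker of the group, whose start did not pass the test. Each line gives 250 bases before and 50 after an annotated start, from the RefSeq table for GRCm38.p6 (mm10), 5′ to 3′ on the gene's own strand, and each lies wholly inside the region named as that gene's start region below. The Egr2 window is chr10:67537619-67537918 on the plus strand, the Jun window chr4:95052173-95052472 on the minus strand and the Fos window chr12:85473640-85473939 on the plus strand. Capitals mark matches to the motifs searched on both strands.
Egr2: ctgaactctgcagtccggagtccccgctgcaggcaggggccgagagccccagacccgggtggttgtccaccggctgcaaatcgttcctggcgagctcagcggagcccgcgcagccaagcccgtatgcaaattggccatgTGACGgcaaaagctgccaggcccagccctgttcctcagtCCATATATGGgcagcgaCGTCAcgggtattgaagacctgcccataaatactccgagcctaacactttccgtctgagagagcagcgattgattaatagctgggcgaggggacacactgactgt
Jun: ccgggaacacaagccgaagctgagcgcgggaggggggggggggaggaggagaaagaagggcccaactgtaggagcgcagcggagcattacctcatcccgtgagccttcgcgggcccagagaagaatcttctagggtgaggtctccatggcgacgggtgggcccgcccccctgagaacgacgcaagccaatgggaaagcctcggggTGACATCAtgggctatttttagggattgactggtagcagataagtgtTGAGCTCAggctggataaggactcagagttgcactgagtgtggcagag
Fos: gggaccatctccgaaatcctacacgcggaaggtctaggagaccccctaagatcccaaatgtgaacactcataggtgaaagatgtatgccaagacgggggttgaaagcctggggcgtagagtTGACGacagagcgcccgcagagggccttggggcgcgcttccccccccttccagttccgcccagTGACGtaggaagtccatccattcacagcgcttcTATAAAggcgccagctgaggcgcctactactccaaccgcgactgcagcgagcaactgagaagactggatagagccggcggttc

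In the Egr2 window the capitals are the cAMP response half-site TGACG at bases -111 to -107, its reverse complement at -55 to -51, and the CArG box CCATATATGG at -72 to -63. A CArG box is the sequence to which serum response factor binds. The Jun window holds 2 matches to TGANNTCA, TGACATCA at -45 to -38 and TGAGCTCA at 3 to 10. The Fos window holds TGACG at -129 to -125 and at -66 to -62 and the TATA sequence TATAAA at -33 to -28. Among 32851 promoter windows of the same length, 20.8% hold TGACG, 14.1% TGANNTCA, 13.6% TATAAA and 1.63% a CArG box. The other motifs searched were the AP-1 site TGANTCA, present in 7.81% of windows, the Egr site GCGNGGGCG, in 5.55%, and the STAT site TTCNNNGAA, in 8.30%. The letters of TGANTCA and TTCNNNGAA were in no window of the 7 member genes matched in the table, while GCGNGGGCG was in those of Fosb and Fosl2. A cAMP response element in full matches both TGACG and TGANNTCA, and a match describes letters only. Fosl1, Egr1 and Egr3 were not matched.

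Across the 10 genes, more regions gained than lost accessibility. Of the 172 regions, all of which passed the filter on low counts, 52 (30.2%) were higher in Ogtflox+/Y libraries and 20 (11.6%) were lower at an adjusted p under 0.05 in edgeR's quasi-likelihood test. Over all 191693 regions tested, 15.4% were higher and 12.7% lower. Without overlap between the groups, 61 of the 172 regions were higher and 30 lower, as were 21.0% and 21.2% of all regions. The median log2 fold change, Ogtflox+/Y over Ogtflox-/Y, was 0.14 for the 172 regions and -0.01 for all regions. In bulk nuclei, fewer cells of a type and less open chromatin per cell cannot be told apart.

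The surplus of gains was set against the accessibility of the regions. Of the 172 regions, 68 (39.5%) lay in the most accessible decile of all regions, where 26 (38.2%) were higher and 4 (5.88%) lower, against 39.8% higher and 4.61% lower among all regions of that decile. In deciles 6 to 9 of accessibility, 21 of 71 (29.6%) were higher and 11 (15.5%) lower, against 14.7% and 17.9% of all regions. Among the less accessible regions of deciles 1 to 5, 5 of 33 (15.2%) were higher and 5 lower, against 11.1% and 10.1% of all regions. In the most accessible decile the members' share was thus that of all regions.

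The surplus also depended on the scaling. Scaling by reads in regions moved the median of all regions to -0.12, library totals moved it to -0.27, and the member regions then split into 33 higher and 26 lower and into 17 higher and 39 lower. With loess offsets, which remove a trend with accessibility, 30 were higher and 25 lower. As a share of the called member regions, higher calls made up 72.2% with TMM, 55.9% with reads in regions, 30.4% with library totals and 54.5% with loess, against 55.0%, 40.3%, 21.8% and 53.8% for all regions. Leaving out Ogtflox-/Y replicate 2 lowered the counts to 25 higher and 10 lower, and all regions to 9.91% higher and 7.66% lower. Without Ogtflox-/Y replicate 3 the counts were 30 higher and 14 lower, beside 11.2% and 9.61% of all regions. The lower count alone moved as far without Ogtflox+/Y replicate 1 (12), Ogtflox+/Y replicate 3 (12) or Ogtflox-/Y replicate 1 (10). Over all regions 9.14%, 9.05% and 7.70% were then lower. Among the 52 higher regions, Ogtflox+/Y replicate 2 was the lowest library of its group in 30, replicate 1 in 13 and replicate 3 in 9. That count was not made over all regions called higher, so it may not be particular to these genes. Ogtflox+/Y replicate 2 also had the fewest reads in regions of its group (12698758). With Ogtflox+/Y replicate 2 alone against the Ogtflox-/Y libraries, 11 regions were higher and 7 lower.

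By family, set beside 15.4% higher and 12.7% lower over all regions, 23 of 77 Fos regions were higher and 9 lower, with a median log2 fold change of 0.13. Of 55 Jun regions, 21 were higher and 5 lower, with a median of 0.20. Of 40 Egr regions, 8 were higher and 6 lower, with a median of 0.05, close to the shares over all regions. With library totals all 3 medians were negative (-0.13 for Fos, -0.07 for Jun and -0.21 for Egr), and that of Egr was -0.06 with reads in regions and -0.02 with loess offsets.

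**Figure D1:**
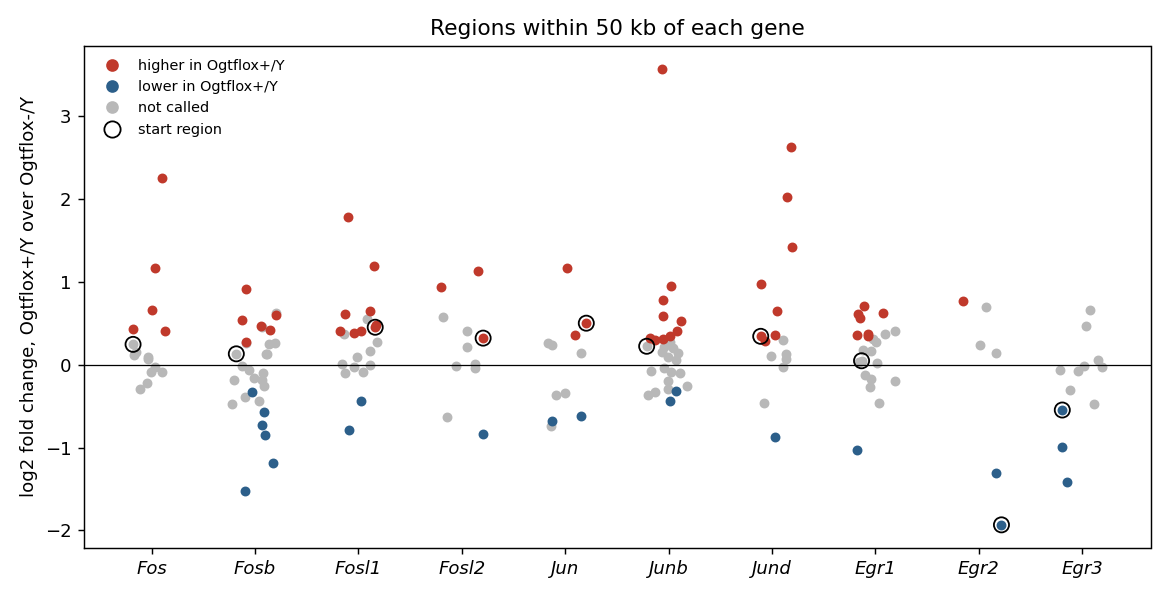
Log2 fold change, Ogtflox+/Y over Ogtflox-/Y, of each of the 172 regions by gene, with regions called by edgeR in colour. Most regions sit within 1 log2 unit of 0, while regions of Junb (3.58), Jund (2.63 and 2.03), Fos (2.25) and Egr2 (-1.93) lie farthest from 0.

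At the gene starts, 4 genes of the Fos and Jun families were higher and 2 of the Egr family were lower. The start region of a gene is its most accessible region within 1000 bp of an annotated start, or of either gene bound where the table gives no strand (Fosl1, Egr1 and Egr3). Of the 10 start regions, those of Jun, Jund, Fosl1 and Fosl2 were higher in Ogtflox+/Y libraries and those of Egr2 and Egr3 lower. The promoter windows of Jund and Fosl2 overlapped no accessible region. Their start regions were centred at 971 bp (Jund) and -726 bp (Fosl2) from the annotated start. Over 13154 distinct start regions of all genes, 36.3% were higher and 6.19% lower, and their median log2 fold change was 0.22. Scaling by reads in regions put that median at 0.11 and scaling by library totals at -0.04. With library totals or loess offsets none of the 10 passed as higher, although Jun, Fosl1 and Fosl2 kept positive fold changes, and Egr2 and Egr3 remained lower.

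**Figure D2:**
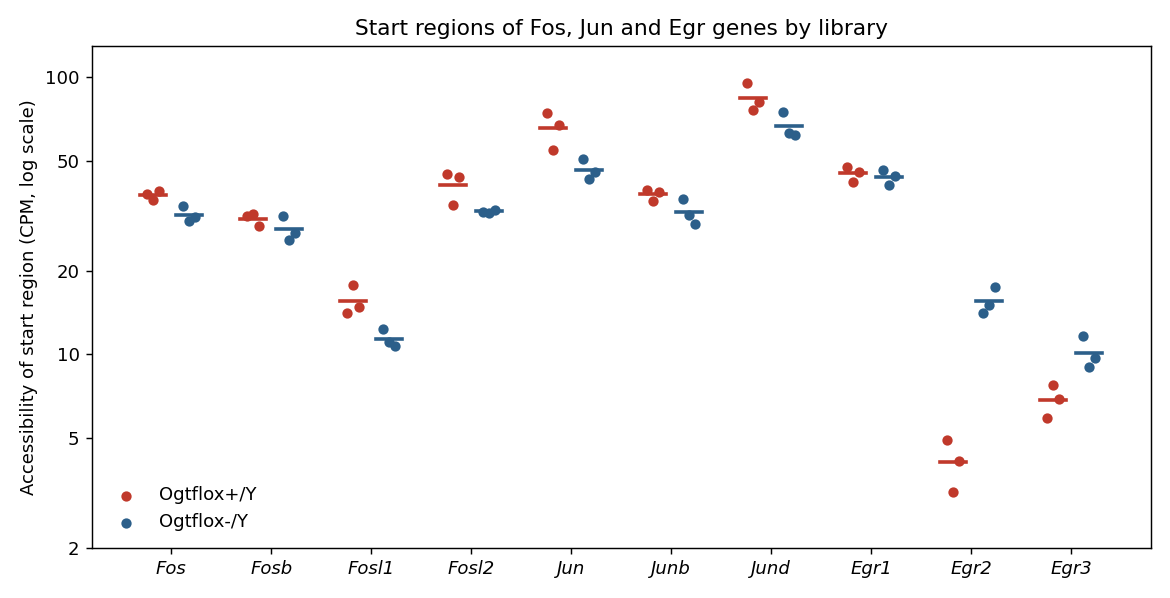
Accessibility in CPM (log axis) of the start region of each of the 10 genes in each library, with Ogtflox+/Y points left of Ogtflox-/Y points and bars at the group means. Egr2 is 4.07 CPM in Ogtflox+/Y libraries against 15.6 CPM in Ogtflox-/Y libraries. The groups overlap at Egr1, Fosb and Junb, and Fos is 37.7 against 31.9 CPM without overlap.

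Egr2 encodes a zinc finger factor best known for directing myelination in Schwann cells and hindbrain segmentation, and it is also induced by activity in neurons. Its start region, chr10:67537337-67537929, lies within the annotated gene bounds and contains the Egr2 promoter printed above. It had 4.91, 3.17 and 4.12 CPM in Ogtflox+/Y replicates 1, 2 and 3, against 14.1, 15.1 and 17.5 CPM in Ogtflox-/Y replicates 1, 2 and 3. Every Ogtflox+/Y library was below every Ogtflox-/Y library. The means were 4.07 ± 0.873 CPM in Ogtflox+/Y and 15.6 ± 1.72 CPM in Ogtflox-/Y libraries (SD, n = 3 each), a log2 fold change of -1.93 (SE 0.17, adjusted p = 7.7e-07 in edgeR). The fold change was between -2.20 and -1.95 with the other scalings, and -2.32 with Ogtflox+/Y replicate 2 alone (adjusted p = 8.2e-08 in edgeR).

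A second region inside Egr2, chr10:67535957-67536357, moved with the first. It had 5.22, 4.99 and 4.45 CPM in Ogtflox+/Y libraries, against 11.93, 12.19 and 12.03 CPM in Ogtflox-/Y libraries. The libraries of each group lay close together and the groups were far apart, with a log2 fold change of -1.30 (SE 0.15, adjusted p = 1.6e-05 in edgeR). The nearest called region in the other direction was chr10:67547804-67548204, inside the neighbouring gene Ado, a thiol dioxygenase gene. It had 13.004, 12.3 and 13.4 CPM in Ogtflox+/Y libraries and 7.37, 8.32 and 6.82 CPM in Ogtflox-/Y libraries, a log2 fold change of 0.78 (SE 0.14, adjusted p = 0.00077 in edgeR). The centre of that gain lay 10074 bp past the annotated start, so loss and gain were close together at this locus.

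Egr3 encodes a related factor that, like Egr1, is induced by neuronal activity and acts in muscle spindle formation. Its start region, chr14:70076678-70077078, is 239 bp outside the lower gene bound. It had 5.90, 7.77 and 6.91 CPM in Ogtflox+/Y libraries, against 11.6, 8.98 and 9.66 CPM in Ogtflox-/Y libraries. The groups did not overlap, and the log2 fold change was -0.55 (SE 0.16, adjusted p = 0.019 in edgeR). The call was lost without Ogtflox+/Y replicate 1 (-0.44, adjusted p = 0.077 in edgeR) and without Ogtflox-/Y replicate 1 (-0.44, adjusted p = 0.088 in edgeR).

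A larger loss near Egr3 lay 21282 bp from its lower bound at chr14:70055635-70056035, inside Pebp4, which encodes a phosphatidylethanolamine-binding protein. This region had 1.29, 2.46 and 3.06 CPM in Ogtflox+/Y libraries, against 7.29, 5.51 and 5.73 CPM in Ogtflox-/Y libraries. All Ogtflox+/Y values were below all Ogtflox-/Y values, and the log2 fold change was -1.42 (SE 0.25, adjusted p = 0.00067 in edgeR). The most accessible region of the locus, chr14:70074396-70075178, had 26.8 ± 1.26 CPM in Ogtflox+/Y and 27.1 ± 0.361 CPM in Ogtflox-/Y libraries (SD, n = 3 each), with a log2 fold change of -0.02 (adjusted p = 0.92 in edgeR). None of the 12 Egr3 regions was higher, and 3 (25.0%) were lower, beside 15.4% higher and 12.7% lower over all regions.

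**Figure D3:**
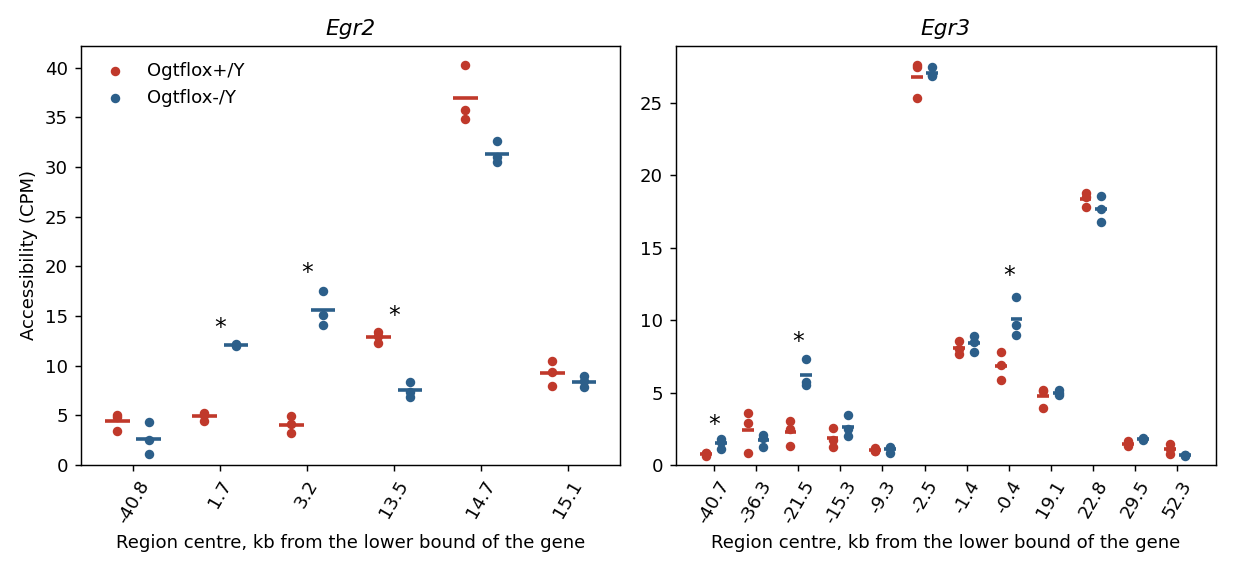
Mean CPM of each region within 50 kb of Egr2 and of Egr3 in Ogtflox+/Y and Ogtflox-/Y libraries, in genomic order and labelled by distance in kb from the gene's lower bound, with points for single libraries, bars for means and asterisks at calls. The 2 regions inside Egr2 are lower in Ogtflox+/Y libraries (4.07 against 15.6 CPM and 4.89 against 12.05 CPM), and the most accessible region at Egr3 is at 26.8 against 27.1 CPM.

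Egr1, the family member most widely used as an activity marker, did not share the loss. Its start region, chr18:34860620-34861250, had 47.6, 42.0 and 45.5 CPM in Ogtflox+/Y libraries and 46.1, 40.8 and 44.0 CPM in Ogtflox-/Y libraries. The groups overlapped, with a log2 fold change of 0.05 (adjusted p = 0.73 in edgeR) that was -0.06 with reads in regions, -0.22 with library totals and -0.26 with loess offsets, the last of which passed the test (adjusted p = 0.010 in edgeR). Inside the gene, chr18:34862045-34862445 had 9.83, 10.2 and 10.97 CPM in Ogtflox+/Y libraries, against 6.53, 6.52 and 5.87 CPM in Ogtflox-/Y libraries. This region was higher in each Ogtflox+/Y library, with a log2 fold change of 0.71 (SE 0.15, adjusted p = 0.0023 in edgeR). At chr18:34855260-34855660, 5547 bp below the gene, the means were 30.6 ± 2.76 CPM in Ogtflox+/Y and 19.9 ± 2.73 CPM in Ogtflox-/Y libraries (SD, n = 3 each), a log2 fold change of 0.63 (SE 0.11, adjusted p = 0.00075 in edgeR). The lower region of largest change near Egr1, chr18:34823232-34823632 inside the histone demethylase gene Kdm3b, had a log2 fold change of -1.04 (SE 0.31, adjusted p = 0.020 in edgeR) and lost its call without Ogtflox+/Y replicate 1 (-0.92, adjusted p = 0.063 in edgeR) or 3 (-1.002, adjusted p = 0.066 in edgeR) and without Ogtflox-/Y replicate 1 (-0.78, adjusted p = 0.098 in edgeR) or 2 (-1.02, adjusted p = 0.065 in edgeR).

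Jun, the founding member of the Jun family and the main partner of Fos in AP-1, gained accessibility at its start. The region chr4:95052086-95052486, which holds the Jun promoter printed above, had 74.2, 54.7 and 67.5 CPM in Ogtflox+/Y libraries, against 50.7, 42.9 and 45.4 CPM in Ogtflox-/Y libraries. Each Ogtflox+/Y library exceeded each Ogtflox-/Y library, and Ogtflox+/Y replicate 2 was the lowest of its group. The means were 65.5 ± 9.93 CPM in Ogtflox+/Y and 46.3 ± 4.00 CPM in Ogtflox-/Y libraries (SD, n = 3 each), a log2 fold change of 0.50 (SE 0.11, adjusted p = 0.0029 in edgeR). It was 0.24 with library totals (adjusted p = 0.17 in edgeR), 0.16 with loess offsets (adjusted p = 0.11 in edgeR) and 0.23 with Ogtflox+/Y replicate 2 alone (adjusted p = 0.26 in edgeR).

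The region of largest gain near Jun was a weak one centred at -30372 bp from the start, chr4:95082394-95082794. It had 1.89, 1.03 and 1.73 CPM in Ogtflox+/Y libraries, against 0.456, 0.781 and 0.758 CPM in Ogtflox-/Y libraries. The groups did not overlap, and the log2 fold change was 1.16 (SE 0.35, adjusted p = 0.018 in edgeR). The call was lost without Ogtflox+/Y replicate 1 (1.02, adjusted p = 0.074 in edgeR), without Ogtflox+/Y replicate 3 (1.10, adjusted p = 0.067 in edgeR) and without Ogtflox-/Y replicate 1 (1.02, adjusted p = 0.061 in edgeR). The lower region of largest change, chr4:95001359-95001759 nearest to the histone deubiquitinase gene Mysm1, had a log2 fold change of -0.68 (SE 0.24, adjusted p = 0.044 in edgeR), and the call was lost whichever library was left out.

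Junb, whose product often restrains the activity of Jun, showed a small difference at its start that did not pass the test. The region chr8:84978586-84978986 had 39.2, 35.8 and 38.7 CPM in Ogtflox+/Y libraries and 36.2, 31.9 and 29.5 CPM in Ogtflox-/Y libraries. The groups overlapped at one library each, and the log2 fold change was 0.22 (adjusted p = 0.10 in edgeR), or -0.04 with library totals and -0.05 with loess offsets. Without Ogtflox-/Y replicate 1 it was 0.31 (adjusted p = 0.046 in edgeR). Just past the other end of the gene, chr8:84976443-84976843 had 37.6, 30.3 and 38.2 CPM in Ogtflox+/Y libraries, against 25.1, 24.3 and 24.1 CPM in Ogtflox-/Y libraries. The groups did not overlap there, with a log2 fold change of 0.53 (SE 0.11, adjusted p = 0.0015 in edgeR).

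The largest gain of all 172 regions lay 42753 bp from Junb, inside Get3, which encodes an ATPase that inserts tail-anchored proteins into membranes. The region chr8:85021501-85021901 had 8.77, 8.08 and 15.2 CPM in Ogtflox+/Y libraries, against 0.760, 1.13 and 0.710 CPM in Ogtflox-/Y libraries. It was well above the floor in each Ogtflox+/Y library, and the highest value was in replicate 3. The log2 fold change was 3.58 (SE 0.28, adjusted p = 2.2e-07 in edgeR), and it was 3.25 to 3.86 when single libraries were left out. The lower region of largest change near Junb, chr8:84945927-84946327 inside the kinase gene Mast1, had a log2 fold change of -0.43 (SE 0.12, adjusted p = 0.013 in edgeR), which was -0.39 without Ogtflox-/Y replicate 2 (adjusted p = 0.079 in edgeR).

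Jund, the most constantly expressed of the Jun genes, had the most accessible start region of the 10 genes. The region chr8:70698408-70699012 had 95.4, 76.4 and 81.5 CPM in Ogtflox+/Y libraries, against 74.8, 63.2 and 62.1 CPM in Ogtflox-/Y libraries. The lowest Ogtflox+/Y library stood just above the highest Ogtflox-/Y library, and the log2 fold change was 0.34 (SE 0.10, adjusted p = 0.019 in edgeR). The call was lost without Ogtflox+/Y replicate 1 (0.26, adjusted p = 0.062 in edgeR), Ogtflox-/Y replicate 2 (0.30, adjusted p = 0.10 in edgeR) or Ogtflox-/Y replicate 3 (0.29, adjusted p = 0.11 in edgeR), and the fold change was 0.08 with library totals and -0.04 with loess offsets.

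Near Jund a far larger gain lay 47973 bp from the gene at chr8:70649366-70649766, inside the pyroglutamyl peptidase gene Pgpep1. This region had 15.4, 13.8 and 13.3 CPM in Ogtflox+/Y libraries, against 1.98, 2.34 and 2.46 CPM in Ogtflox-/Y libraries. Libraries of 1 group lay within a narrow range, and the log2 fold change was 2.63 (SE 0.17, adjusted p = 3.2e-08 in edgeR), or 2.56 to 2.69 when single libraries were left out. A second gain, chr8:70667042-70667442 nearest to the splicing factor gene Lsm4, had 3.18, 1.35 and 2.99 CPM in Ogtflox+/Y libraries, against 0.836, 0.469 and 0.615 CPM in Ogtflox-/Y libraries. Its log2 fold change was 2.03 (SE 0.36, adjusted p = 0.00057 in edgeR). The lower region of largest change, chr8:70718303-70718703 inside the predicted gene Gm3336, had a log2 fold change of -0.88 (SE 0.18, adjusted p = 0.0016 in edgeR).

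Fos itself, the gene that gives the family its name, had a start region that did not pass the test. The region chr12:85473411-85474013, which covers the Fos promoter printed above, had 38.0, 36.2 and 38.9 CPM in Ogtflox+/Y libraries, against 34.2, 30.2 and 31.2 CPM in Ogtflox-/Y libraries. Every Ogtflox+/Y library was above every Ogtflox-/Y library, as at 21.0% of all regions. The log2 fold change was 0.25 (SE 0.10, adjusted p = 0.061 in edgeR), close to the 0.22 of the median start region, and it was -0.02 both with library totals and with loess offsets. Without Ogtflox-/Y replicate 1 it was 0.30 (adjusted p = 0.044 in edgeR).

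Within 50 kb of Fos, 5 of 15 regions (33.3%) were higher and none was lower, beside 15.4% higher and 12.7% lower over all regions. With reads in regions 3 were higher and 0 lower, beside 11.8% and 17.4% of all regions. Library totals gave 1 higher and 1 lower, beside 6.85% and 24.6%, and loess offsets 2 and 1, beside 13.7% and 11.8%. Fos was the nearest protein-coding gene to all 15. Of the accessible upstream regions, chr12:85455215-85455615, centred at -18475 bp from the start, had 71.9, 65.4 and 73.2 CPM in Ogtflox+/Y libraries, against 56.1, 50.2 and 52.4 CPM in Ogtflox-/Y libraries. This was the most accessible region of the locus, above the promoter, and its groups did not overlap. The log2 fold change was 0.41 (SE 0.09, adjusted p = 0.0033 in edgeR). It fell to 0.15 with library totals (adjusted p = 0.34 in edgeR) and to 0.06 with loess offsets (adjusted p = 0.53 in edgeR).

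Farther upstream, chr12:85436113-85436513, centred at -37577 bp from the start, had 37.8, 34.9 and 43.7 CPM in Ogtflox+/Y libraries, against 32.1, 26.2 and 28.7 CPM in Ogtflox-/Y libraries. Here too the groups did not overlap, with a log2 fold change of 0.43 (SE 0.11, adjusted p = 0.0076 in edgeR). It was 0.35 without Ogtflox-/Y replicate 2 (adjusted p = 0.068 in edgeR), 0.17 with library totals (adjusted p = 0.36 in edgeR) and 0.16 with loess offsets (adjusted p = 0.18 in edgeR). Between these regions and the start, the region centred at -21466 bp had a log2 fold change of -0.29 (adjusted p = 0.32 in edgeR) and that at -1683 bp one of -0.03 (adjusted p = 0.88 in edgeR).

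On the downstream side the accessible regions showed little difference. The region chr12:85485893-85486293, centred 12203 bp past the start, had 49.1, 42.5 and 48.0 CPM in Ogtflox+/Y libraries and 44.1, 38.9 and 42.2 CPM in Ogtflox-/Y libraries. These groups overlapped, with a log2 fold change of 0.16 (adjusted p = 0.23 in edgeR). Regions centred 737, 9420, 13969, 18393, 23054 and 34613 bp past the start had log2 fold changes between -0.22 and 0.12, none of which passed the edgeR test. The one at 13969 bp passed as lower with library totals (-0.35, adjusted p = 0.040 in edgeR) and with loess offsets (-0.28, adjusted p = 0.030 in edgeR).

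The downstream calls were at weakly accessible regions at or beyond 24095 bp. The one of largest change, chr12:85524480-85524880, near the edge of the window at 50790 bp past the start, had 8.24, 1.35 and 3.39 CPM in Ogtflox+/Y libraries, against 0.988, 1.02 and 0.710 CPM in Ogtflox-/Y libraries. Ogtflox+/Y replicate 1 carried most of this difference. The log2 fold change was 2.25 (SE 0.44, adjusted p = 0.0014 in edgeR), 1.43 without that library (adjusted p = 0.0087 in edgeR) and 0.56 with Ogtflox+/Y replicate 2 alone (adjusted p = 0.50 in edgeR). The regions centred at 24095 and 48917 bp had log2 fold changes of 0.66 (SE 0.22, adjusted p = 0.030 in edgeR) and 1.17 (SE 0.43, adjusted p = 0.049 in edgeR). Without Ogtflox+/Y replicate 1 these became 0.59 (adjusted p = 0.086 in edgeR) and 0.67 (adjusted p = 0.32 in edgeR), and leaving out Ogtflox+/Y replicate 3, Ogtflox-/Y replicate 1 or Ogtflox-/Y replicate 2 also ended both calls, as did leaving out Ogtflox-/Y replicate 3 for the one at 48917 bp.

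**Figure D4:**
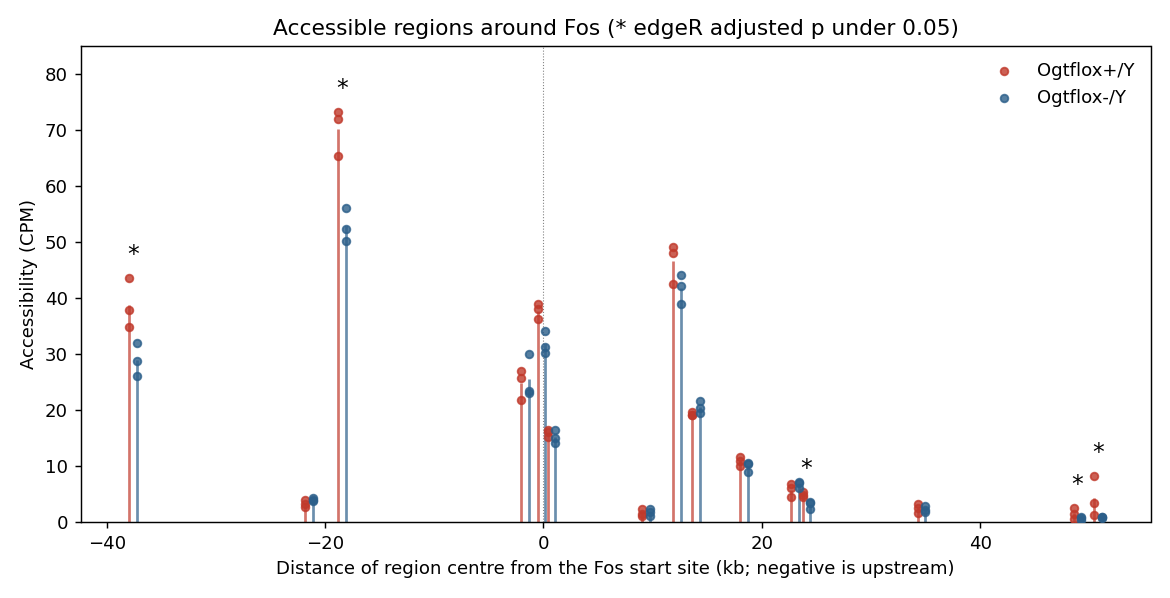
CPM of the 15 regions within 50 kb of Fos in each Ogtflox+/Y and Ogtflox-/Y library, by distance in kb of the region's centre from the Fos start, with stems at group means and asterisks at calls. The largest levels are at the region -18475 bp from the start (65.4 to 73.2 CPM in Ogtflox+/Y libraries, 50.2 to 56.1 CPM in Ogtflox-/Y libraries), and the promoter differs less.

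Fosb, the source of ΔFosB, had mixed changes with TMM scaling, with 6 of 30 regions higher and 6 lower. The shares over all regions were 15.4% higher and 12.7% lower. With reads in regions 1 was higher and 9 lower, beside 11.8% and 17.4% of all regions. Library totals gave 1 higher and 13 lower, beside 6.85% and 24.6%, and loess offsets 5 and 7, beside 13.7% and 11.8%. The Fosb start region, chr7:19309916-19310506, had 31.5, 32.0 and 29.2 CPM in Ogtflox+/Y libraries and 31.7, 25.8 and 27.4 CPM in Ogtflox-/Y libraries. The groups overlapped, with a log2 fold change of 0.13 (adjusted p = 0.36 in edgeR), or -0.14 with library totals and -0.11 with loess offsets. Toward the other end of the gene, chr7:19303790-19304190 had 4.61, 5.07 and 4.19 CPM in Ogtflox+/Y libraries, against 7.07, 7.11 and 6.39 CPM in Ogtflox-/Y libraries, a log2 fold change of -0.57 (SE 0.18, adjusted p = 0.023 in edgeR).

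The larger changes near Fosb lay inside its neighbours. Inside Vasp, an actin regulator gene, and 44758 bp from Fosb, chr7:19257341-19257938 had 2.80, 3.25 and 2.33 CPM in Ogtflox+/Y libraries, against 9.12, 8.48 and 6.49 CPM in Ogtflox-/Y libraries. The groups were well separated, and the log2 fold change was -1.52 (SE 0.21, adjusted p = 6.9e-05 in edgeR). The reticulon gene Rtn2, between Vasp and Fosb, held changes in both directions. A loss that overlapped its end near Fosb, chr7:19295781-19296181, had 7.48, 5.15 and 6.45 CPM in Ogtflox+/Y libraries, against 16.2, 14.6 and 12.8 CPM in Ogtflox-/Y libraries, a log2 fold change of -1.18 (SE 0.16, adjusted p = 5.9e-05 in edgeR). The gain, chr7:19284768-19285168 had 4.08, 3.17 and 3.92 CPM in Ogtflox+/Y libraries, against 2.36, 2.11 and 1.52 CPM in Ogtflox-/Y libraries. The log2 fold change of the gain was 0.92 (SE 0.24, adjusted p = 0.0083 in edgeR), or 0.75 without Ogtflox-/Y replicate 3, where the call was lost.

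Fosl1 encodes Fra-1, a Fos relative that lacks the strong activation domain of Fos, and it had the largest gain inside any of the 10 genes. The region chr19:5448579-5448979, inside the gene bounds, had 7.41, 10.4 and 8.64 CPM in Ogtflox+/Y libraries, against 2.43, 3.05 and 2.08 CPM in Ogtflox-/Y libraries. The lowest Ogtflox+/Y library was above the highest Ogtflox-/Y library by a wide margin, and the log2 fold change was 1.79 (SE 0.21, adjusted p = 1.3e-05 in edgeR). Its start region, chr19:5447539-5447939, had 14.1, 17.8 and 14.8 CPM in Ogtflox+/Y libraries, against 12.3, 11.1 and 10.7 CPM in Ogtflox-/Y libraries. Again the groups did not overlap, and the log2 fold change was 0.45 (SE 0.13, adjusted p = 0.015 in edgeR). That call was lost without Ogtflox+/Y replicate 2 (0.34, adjusted p = 0.070 in edgeR), Ogtflox-/Y replicate 2 (0.43, adjusted p = 0.076 in edgeR) or Ogtflox-/Y replicate 3 (0.41, adjusted p = 0.068 in edgeR). The lower region of largest change, chr19:5432933-5433333 nearest to the gene AI837181, had a log2 fold change of -0.79 (SE 0.20, adjusted p = 0.0083 in edgeR), which was -0.68 without Ogtflox-/Y replicate 2 (adjusted p = 0.065 in edgeR).

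Fosl2 encodes Fra-2, a second relative of the same kind. Its start region, chr5:32135546-32135946, had 44.8, 34.6 and 43.7 CPM in Ogtflox+/Y libraries, against 32.7, 32.5 and 33.3 CPM in Ogtflox-/Y libraries. Ogtflox+/Y replicate 2 stood only just above the Ogtflox-/Y libraries. The log2 fold change was 0.32 (SE 0.11, adjusted p = 0.029 in edgeR), and the call was lost on leaving out any library other than Ogtflox+/Y replicate 2 (edgeR adjusted p of 0.065 to 0.11). The region of largest gain, chr5:32086654-32087054 nearest to the DNA repair complex gene Babam2, had 3.93, 3.25 and 4.25 CPM in Ogtflox+/Y libraries, against 1.899, 1.25 and 2.13 CPM in Ogtflox-/Y libraries. The groups did not overlap, with a log2 fold change of 1.14 (SE 0.25, adjusted p = 0.0029 in edgeR). The lower region of largest change, chr5:32102464-32102864 also nearest to Babam2, had a log2 fold change of -0.84 (SE 0.29, adjusted p = 0.040 in edgeR), and that call was lost without Ogtflox+/Y replicate 2 or 3 or any single Ogtflox-/Y library.

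Summing the reads of all regions within 50 kb gave 1 value per gene, on a CPM scale of its own in which a region counts once for each gene window it falls in. On that scale Jun was higher and Egr2 and Egr3 were lower in Ogtflox+/Y libraries, while over all 19277 genes 16.6% were higher and 18.2% lower. Egr3 had 27.2, 30.1 and 29.3 CPM in Ogtflox+/Y libraries, against 35.1, 34.0 and 36.3 CPM in Ogtflox-/Y libraries. The groups did not overlap, as at 24.1% of all genes in this direction and 22.5% in the other, and the log2 fold change was -0.28 (SE 0.06, adjusted p = 0.0024 in edgeR). Egr2 had 28.5, 27.5 and 26.8 CPM in Ogtflox+/Y libraries, against 29.3, 33.1 and 35.1 CPM in Ogtflox-/Y libraries, a log2 fold change of -0.24 (SE 0.07, adjusted p = 0.013 in edgeR). Its call was lost without Ogtflox+/Y replicate 3 (adjusted p = 0.061 in edgeR), Ogtflox-/Y replicate 2 (adjusted p = 0.054 in edgeR) or Ogtflox-/Y replicate 3 (adjusted p = 0.10 in edgeR).

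For Jun the summed level was 61.2, 54.4 and 59.5 CPM in Ogtflox+/Y libraries and 54.7, 50.7 and 52.1 CPM in Ogtflox-/Y libraries. Ogtflox+/Y replicate 2 lay within the Ogtflox-/Y range, and the log2 fold change was 0.16 (SE 0.05, adjusted p = 0.032 in edgeR). It lost its call without Ogtflox+/Y replicate 1 (adjusted p = 0.11 in edgeR) or 3 (adjusted p = 0.10 in edgeR) and without Ogtflox-/Y replicate 2 (adjusted p = 0.15 in edgeR) or 3 (adjusted p = 0.088 in edgeR). The call was also lost with library totals and with loess offsets, and the lowest log2 fold change over the alternatives was 0.03. The summed Fos locus had 110.6, 105.5 and 112.9 CPM in Ogtflox+/Y libraries and 106.6, 99.2 and 103.5 CPM in Ogtflox-/Y libraries, which overlapped (log2 fold change 0.09, adjusted p = 0.17 in edgeR). By the summed level, the genes whose pattern over the 6 libraries was most like that of Fos among 19282 genes were Taldo1 (Pearson's r = 0.995), D5Ertd579e (0.989) and 4930432K21Rik (0.989), and 429 genes had an r above 0.9.

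Sums within 10 kb gave 7 calls, with Fosl1, Jun, Jund and Egr1 higher and Fosb, Egr2 and Egr3 lower, while over all 17789 genes 18.3% were higher and 19.9% lower. Of the 172 regions, 59 were nearest to a member, of which 21 (35.6%) were higher and 4 (6.78%) lower. The other 113 were nearest to another gene, of which 31 (27.4%) were higher and 16 (14.2%) lower. Over all regions 15.4% were higher and 12.7% lower. Like the sums within 10 kb, sums restricted to regions whose nearest gene was the member were fitted with TMM scaling only. In them Fosl1, Fosl2, Jun, Junb, Jund and Egr1 were higher and Egr2 and Egr3 lower, while over all 16948 genes 18.2% were higher and 19.4% lower. Egr2 had a log2 fold change of -1.30 (SE 0.12, adjusted p = 6.2e-06 in edgeR) and Fosl1 one of 0.70 (SE 0.13, adjusted p = 0.00082 in edgeR). The other 6 called lay between -0.24 and 0.24.

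Genes that act with or upstream of these factors showed the gain that is common to gene starts. Of 54 such genes, 48 had a start region, of which 23 were higher and 2 lower, with a median log2 fold change of 0.28. Over all start regions 36.3% were higher and 6.19% lower, with a median of 0.22. Among AP-1 partners 6 of 10 were higher, among Egr partners 2 of 3, among upstream factors 7 of 17 with 1 lower, and among upstream kinases and phosphatases 8 of 18 with 1 lower. With library totals 1 of the 48 was higher and 4 were lower, beside 5.30% and 14.5% of all start regions. With reads in regions the counts were 16 higher and 4 lower, beside 25.4% and 10.1%, and with loess offsets 8 higher and 8 lower, beside 12.4% and 14.5%.

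Of the single genes, Nfe2l2, which encodes the oxidative stress factor Nrf2, had 28.3, 10.6 and 17.3 CPM in Ogtflox+/Y libraries, against 3.80, 3.44 and 3.41 CPM in Ogtflox-/Y libraries, a log2 fold change of 2.41. Its 3 Ogtflox+/Y libraries differed widely and all lay above the Ogtflox-/Y libraries. Creb1, the cAMP response factor upstream of Fos, had 60.2, 47.4 and 49.7 CPM in Ogtflox+/Y libraries, against 39.0, 34.4 and 31.9 CPM in Ogtflox-/Y libraries, a log2 fold change of 0.58. Dusp6, a phosphatase of ERK, had 41.4, 35.7 and 43.0 CPM in Ogtflox+/Y libraries, against 29.2, 24.0 and 28.1 CPM in Ogtflox-/Y libraries, a log2 fold change of 0.57. The 2 lower genes were Mef2c, an activity-regulated neuronal factor, and Dusp5, a nuclear ERK phosphatase. Mef2c had 7.56, 6.82 and 7.51 CPM in Ogtflox+/Y libraries, against 11.1, 12.2 and 12.9 CPM in Ogtflox-/Y libraries, a log2 fold change of -0.73. Dusp5 had 17.99, 18.1 and 15.1 CPM in Ogtflox+/Y libraries, against 21.1, 20.4 and 22.9 CPM in Ogtflox-/Y libraries, a log2 fold change of -0.33.

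Start regions of marker genes of other cell types were read beside 36.3% higher and 6.19% lower over all start regions, and their part in the results above was not tested. At astrocyte markers, 4 of 7 start regions were higher and none lower, with a summed level of 23.1 to 55.1 CPM in Ogtflox+/Y libraries and 20.2 to 22.8 CPM in Ogtflox-/Y libraries. Ogtflox+/Y replicate 2 had the 23.1 CPM, the lowest of its group. At oligodendrocyte markers 4 of 7 were higher, with summed levels of 77.6, 41.9 and 50.3 CPM in Ogtflox+/Y replicates 1, 2 and 3 and 48.5 to 54.8 CPM in Ogtflox-/Y libraries. Ogtflox+/Y replicate 1, the library whose title conflicts with its genotype label, stood apart: Mag had 9.90, 0.159 and 0.797 CPM in Ogtflox+/Y libraries and 0.380, 0.352 and 0.663 CPM in Ogtflox-/Y libraries. Without that library 0 of the 7 were higher and 1 was lower in edgeR, and the astrocyte count was 3 of 7. At GABAergic markers 2 of 3 were higher, with 46.8 to 63.2 CPM in Ogtflox+/Y and 31.0 to 41.3 CPM in Ogtflox-/Y libraries. Endothelial markers were lower at 2 of 3 start regions, with 6.66 to 8.77 CPM in Ogtflox+/Y and 10.9 to 15.7 CPM in Ogtflox-/Y libraries. Microglial markers had start regions at 2 of 7 genes, with 1.33 to 3.48 CPM in Ogtflox+/Y and 1.899 to 2.75 CPM in Ogtflox-/Y libraries and no call. Dopaminergic markers were higher at 1 of 8 start regions (En1), with 219.9 to 293 CPM in Ogtflox+/Y and 217 to 424 CPM in Ogtflox-/Y libraries. Most of that sum was Th, with 172 to 238 CPM in Ogtflox+/Y and 178 to 379 CPM in Ogtflox-/Y libraries. Each other dopaminergic start had between 3.83 and 16.3 CPM in every library, and each GABAergic start between 6.39 and 26.9 CPM. The dopaminergic sum is therefore no measure of the share of dopaminergic nuclei. The glutamatergic marker with a start region, 1 of 2, had 7.41 to 13.8 CPM in Ogtflox+/Y and 10.2 to 13.4 CPM in Ogtflox-/Y libraries and no call. No marker start region was at 0 in any library.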

How the data were processed

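ATAC-seq libraries of sorted ventral tegmental nuclei, 3 Ogtflox+/Y and 3 Ogtflox-/Y, were grouped by genotype label. Per the submitters' processing notes, FastQC, Trimmomatic, BWA, SAMtools 1.9, Picard, MACS2 and build mm10 were used. How reads were counted, whether they were shifted and how regions were defined is not given in the sources used here. Per the labels' protocols, a general DNA library kit was used. Per the file headers, 3 columns hold the read count, the RPKM and a score for 193148 common regions, 94.6% of them 401 bp wide. The deposited counts were tested without change. The deposited RPKM values served only to recover library totals, and the deposited score was not tested.

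Group was the single term of a quasi-likelihood fit over all regions (edgeR 4.0.16, R 4.3.3), after TMM scaling and filterByExpr on low counts. A call is a Benjamini-Hochberg adjusted p under 0.05 over all regions or genes of the fit. Log2 fold changes are Ogtflox+/Y over Ogtflox-/Y. Gene bounds and promoter windows came from RefSeq tables for GRCm38.p6. These tables hold no exons, and a region may act on a gene other than the nearest. The scripts were tested on simulated data.

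The alternatives were DESeq2 1.42.0, scaling by reads in regions, by library totals or by loess, no filter, each library left out, Ogtflox+/Y replicate 2 alone, grouping by title, a 10 kb window and nearest genes. Regions named by rule are each member's start region, its called region of largest change in each direction, every region of Fos and, of the upstream and partner genes, the 3 called start regions of largest change each way. The other regions of Egr1, Egr2, Egr3, Fosb, Junb and Jund given with values were picked once their values were known. The members and gene lists were chosen with earlier results of these data known.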

Additional observations from a re-analysis of the deposited data

How the results depend on the processing

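The main counts were 52 member regions higher, 20 lower, 6 start regions called and 3 summed loci called. Scaling by reads in regions gave 33 regions higher and 4 start regions called, library totals 17, 39, 2 and 2, and loess offsets 30 regions higher and 3 start regions called. DESeq2 gave 13 regions lower. Leaving out single libraries gave 25 to 54, 10 to 15, 3 to 6 and 1 to 4. Ogtflox+/Y replicate 2 alone gave 11, 7, 2 and 0 (2 summed loci at an unadjusted p under 0.05), and grouping by title gave 0 of each in edgeR, with 23 regions and 2 summed loci at an unadjusted p under 0.05. A 10 kb window held 17 higher and 5 lower regions and 7 called loci, and nearest genes gave 21, 4 and 8. Counting every region within 1000 bp of a start, a larger set than the start regions, gave 10 called in either direction. The matching share over all genes was not computed.

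Single values numbered 670 over the alternatives, of which 485 kept direction and call, 128 lost the call, 18 gained one and 39 changed sign. With library totals the log2 fold changes were -0.016, -0.14, -0.038 and -0.22 at the starts of Fos, Fosb, Junb and Egr1, -0.19, -0.10, -0.14 and -0.18 at the Fos regions 737, 12203, 18393 and 34613 bp past the start, and -0.035, -0.0071, -0.010, -0.073, -0.023 and -0.0049 for the summed loci of Fos, Fosl1, Fosl2, Junb, Jund and Egr1. With loess offsets they were -0.025, -0.11, -0.048, -0.039 and -0.26 at the starts of Fos, Fosb, Junb, Jund and Egr1, and -0.079 and -0.15 at 737 and 12203 bp. Reads in regions gave -0.062 at the Egr1 start and -0.040 and -0.016 at 737 and 34613 bp. Ogtflox+/Y replicate 2 alone gave -0.070 at the Egr1 start and -0.012 and -0.16 at 737 and 48917 bp. Grouping by title gave -0.040 at the Egr1 start and -0.032 and -0.15 at 48917 and 50790 bp. The 10 kb window gave -0.013 for the summed Fos locus. Without single libraries the range was -0.10 to 0.099 at -1683 bp from the Fos start, -0.43 to 0.13 at 9420 bp, -0.15 to 0.33 at 34613 bp and -0.0022 to 0.094 at the Egr1 start. These are all the sign changes, and their cause was not tested.

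No paired analysis was possible because the titles give each of the 6 libraries a number of its own, and the replicate numbers used here are names in accession order that pair nothing. A fit with 1 library in a group assumes that it varies like the other group. Low regions rest on few reads, with 3 reads worth up to 0.238 CPM.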
